A study of Mus musculus with 29 samples.

Results

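T cell clones with a large share in the ovary metastases of mice carrying a Braf-mutated melanoma were followed into the brain metastases. The clones were read through the beta chain of their T cell receptor (TRB). Clonotypes were told apart by V name, J name and CDR3 residues, and 59 of 27384 productive TRB clonotypes were chosen by their share: each held 1% or more of the productive TRB counts of at least 1 ovary, with both parts of that ovary summed. These 59 are called expanded clonotypes here, and since their ovary shares chose them, the level of those shares is given as a description. The only test on ovary values compares the 2 parts of each ovary.

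The drugs were anti-PD-L1, an antibody against the ligand that restrains T cells through PD-1, and trametinib, which blocks the kinase MEK of the MAPK pathway. The labels describe every sample as Braf-mutated melanoma in an experimental metastasis model and give neither strain nor age of the mice. Each ovary treatment had 1 number in the labels, sampled as 2 parts: number 3 was untreated (day 0, "Vehicle" in the title), number 10 had the anti-PD-L1 lead-in (day 0), number 13 had trametinib (day 3), number 1 had both drugs together (trametinib and anti-PD-L1, called the concurrent combination, day 3) and number 12 had the lead-in and then both drugs (called the lead-in combination, day 3). Each treatment had 2 brain numbers, which were 3 and 7 (untreated), 10 and 11 (lead-in), 8 and 13 (trametinib), 1 and 6 (concurrent combination) and 12 and 14 (lead-in combination). It is not stated in the labels if each number stands for 1 mouse, nor how the parts were taken, and a difference between ovaries cannot be told apart from a difference between treatments.

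The 10 ovary samples held 16179 to 51674 productive TRB counts and the 19 brain samples 266 to 7067. A clonotype with 0 counts could therefore hold up to 3 counts of the total, which was 0.0244% in the brain of number 12, 0.0657% in number 1, 0.227% in number 13, 0.320% in number 10 and 0.482% in number 3, with the parts summed. In such bulk libraries, more cells of a clone and more receptor RNA per cell cannot be told apart. The 95% intervals given are of the exact (Clopper-Pearson) kind. They and these limits reflect counting alone, and copies made by PCR would not be independent molecules.

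The beta chain is assembled in the thymus by joining a V, a D and a J segment, with bases trimmed and added at the joins. The CDR3 spans those joins and is the part of the chain that meets the peptide most directly. Because the join is made anew in each T cell, a beta CDR3 works as a tag of the clone that descends from that cell, and a clone rises in share when its cells divide or gather in a tissue. Some CDR3 sequences are made more easily than others and arise in several animals.

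Sequences are printed for clonotypes of up to 14 residues, which were 37 of the 59. Longer ones are named by their segments and length. The following were among the 3 largest in their ovary and are shown because the results on parts and brains turn on them.
TRBV16/TRBJ2-5, ovary number 3: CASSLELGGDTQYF
TRBV16/TRBJ2-7, ovary number 3: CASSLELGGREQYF
TRBV16/TRBJ2-7, ovary number 10: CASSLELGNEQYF
TRBV30/TRBJ1-1, ovary number 10: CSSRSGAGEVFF
TRBV12-1/TRBJ2-7, ovary number 13: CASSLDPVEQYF
TRBV15/TRBJ2-7, ovary number 13: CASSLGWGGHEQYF
TRBV16/TRBJ1-1, ovary number 1: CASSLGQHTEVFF
TRBV1/TRBJ2-1, ovary number 12: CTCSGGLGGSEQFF
TRBV23/TRBJ2-7, ovary number 12: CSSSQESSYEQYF
TRBV3/TRBJ1-1, ovary number 12: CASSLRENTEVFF

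The lead-in combination had the most expanded clonotypes and the largest single one. Its ovary held 16, against 14 in the lead-in ovary, 11 in the concurrent combination, 10 in trametinib and 8 in the untreated ovary. Together they made up 41.1% and 41.8% of the counts in parts 1 and 2 of the lead-in combination. The corresponding shares were 26.7% and 25.5% in the lead-in ovary, 20.2% and 20.4% in trametinib, 17.7% and 21.2% in the concurrent combination and 17.7% and 16.1% in the untreated ovary. The expanded clonotypes were 0.185% to 0.546% of the clonotypes of their ovaries. No test was possible across treatments, with 1 number each.

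In the ovary of the lead-in combination the TRBV1 clonotype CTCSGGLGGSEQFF held 8.93% of part 1 and 10.9% of part 2. The TRBV23 clonotype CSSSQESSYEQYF held 4.45% and 6.42%, and the TRBV3 clonotype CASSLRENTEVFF 5.89% and 2.75%. In the lead-in ovary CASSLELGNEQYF (TRBV16) held 5.84% and 5.49%, followed by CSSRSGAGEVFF (TRBV30) with 3.13% and 2.94% and a TRBV5/TRBJ2-4 clonotype of 16 residues with 2.26% and 3.93%. The same clonotype was first in both parts of each of these ovaries, while the order of the next ones changed between parts.

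In the untreated ovary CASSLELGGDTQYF led with 5.36% and 3.67%, before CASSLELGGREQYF with 2.62% and 3.02% and a TRBV2/TRBJ1-1 clonotype of 15 residues with 2.84% and 2.01%. In the trametinib ovary a TRBV5/TRBJ1-4 clonotype of 15 residues held 2.24% and 4.63%, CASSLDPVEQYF 6.45% and 0.848%, and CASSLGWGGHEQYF 1.52% and 4.42%. In the concurrent combination a TRBV3/TRBJ2-1 clonotype of 15 residues held 4.03% and 2.30%, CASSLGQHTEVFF 3.45% and 1.99%, and a TRBV13-2/TRBJ2-2 clonotype of 16 residues 0.0886% and 5.62%. In the untreated ovary the same clonotype was first in both parts. In the trametinib and concurrent combination ovaries, different clonotypes were first in parts 1 and 2.

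**Figure D1:**
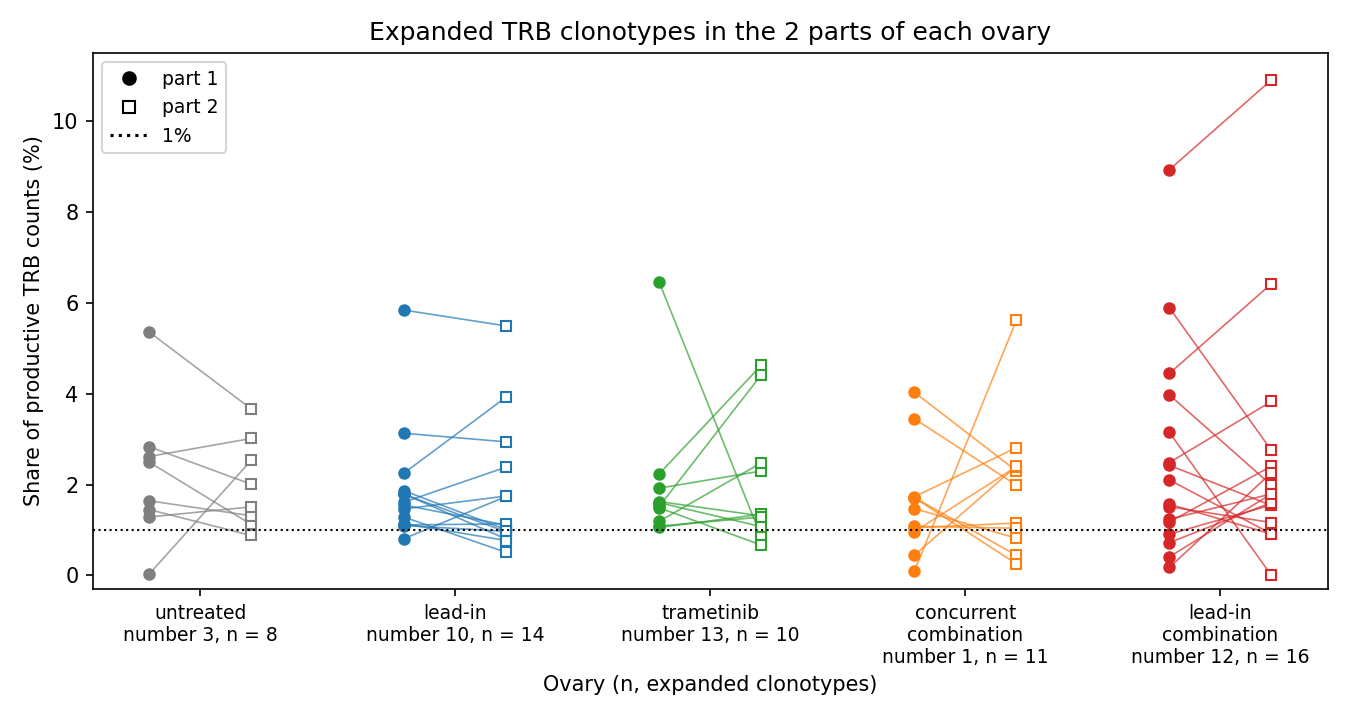
Share of productive TRB counts (vertical axis, %) of each expanded clonotype in part 1 (filled circles) and part 2 (open squares) of its ovary, with a line joining the same clonotype and a dotted line at 1%. In the lead-in combination 1 clonotype reached 8.93% and 10.9%, and several lines cross the 1% level between the parts.

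The threshold cut through a continuous range of shares. The expanded clonotypes nearest to it held 1.05% (number 1), 1.12% (number 3), 1.00% (number 10), 1.04% (number 12) and 1.04% (number 13). The largest clonotypes left outside held 0.969%, 0.968%, 0.996%, 0.801% and 0.949% in the same order. The narrowest gap was in the lead-in ovary, where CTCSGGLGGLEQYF (TRBV1/TRBJ2-7) fell just outside at 0.996% and a TRBV5/TRBJ2-3 clonotype of 15 residues just inside.

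The parts of an ovary held nearly all the same expanded clonotypes, at differing shares. Of the 59, 58 had counts in both parts, against 10.8% of all ovary clonotypes, and 36 held 1% or more in each part. The choice by high summed counts favours presence in both parts. The higher share exceeded the lower by a median of 1.72-fold, and for 23 clonotypes by 2-fold or more. Fisher's exact test compared the 2 libraries of each ovary, clonotype by clonotype, with Benjamini-Hochberg adjustment over all clonotypes with at least 10 counts. At adjusted p under 0.05 it called 9 of 11 expanded clonotypes in number 1, where 86.4% of all tested clonotypes were called, and 7 of 8 in number 3, where 68.6% were. It called 10 of 14 in number 10 (70.4% of all tested), 16 of 16 in number 12 (83.1%) and 9 of 10 in number 13 (80.1%). The calls were thus frequent among all tested clonotypes and not only the expanded ones. Each part was 1 library and the test takes counts as independent, which is not known here, so it compares these libraries and its p-values may be too small.

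A few clonotypes owed their place to 1 part. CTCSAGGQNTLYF (TRBV1/TRBJ2-4) had 715 counts in part 1 of the lead-in combination, 3.15% of that library, and 0 counts in part 2. By the limit of 3 counts, which reflects counting alone, it was at least 198-fold lower there. It was also absent from both brain parts of number 12, where the limit was 0.0244%, and from the other 4 ovaries. The TRBV5/TRBJ1-4 clonotype of 15 residues in the untreated ovary held 0.0287% of part 1 and 2.53% of part 2 (88.3-fold), and the TRBV13-2/TRBJ2-2 clonotype of the concurrent combination differed 63.4-fold. A TRBV17/TRBJ2-1 clonotype of 15 residues in number 12 held 0.176% and 2.26% (12.8-fold).

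Clonotypes were also chosen on 1 part and looked up in the other. Over the 5 ovaries and both directions there were 113 choices of a clonotype at 1% or more in 1 part. In the other part 112 of these were found and 72 again held 1% or more (63.7%), against 0.483% of all clonotypes found in 1 part. These 72 are the 36 clonotypes with 1% or more in each part, each counted in both directions. The share was lower in the other part for 77 of the 113, a count that follows from the others. A choice under 1% in the other part is lower there, and each of the 36 is lower in 1 direction only. In the lead-in combination the 13 clonotypes chosen in part 1 summed to 40.1% there and 34.7% in part 2, and in the concurrent combination the 12 chosen in part 2 summed to 24.6% there and 14.8% in part 1. In the trametinib ovary the 10 chosen in part 1 summed to 20.2% there and 20.4% in part 2, and 4 of the 10 were lower in part 2.

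Most expanded ovary clonotypes were also found in the brain of the same number, at a lower share. Of the 59, 50 had at least 1 count there, 28 had 10 or more, and 10 held 1% or more of the brain counts. All 11 were found in number 1, where 8.19% of all clonotypes of the ovary were found in the brain, and all 10 in number 13 (4.32% of all). In number 12, 15 of 16 were found (14.7% of all), in number 10, 9 of 14 (2.19% of all), and in number 3, 5 of 8 (2.29% of all). Summed over the 5 numbers, 50 of 75 clonotypes of 0.5% to 1% in the ovary were found, 216 of 476 of 0.1% to 0.5%, and 847 of 20335 under 0.1%. The step from 1% or more to 0.5% to 1% was not the same in each number and was not tested. In the 0.5% to 1% class, 20 of 21 were found in number 1, 6 of 11 in number 13 and 2 of 17 in number 10, a lower share than in the expanded class, but 10 of 14 in number 3 and 12 of 12 in number 12, a higher one. With each brain thinned to 622 counts, the lowest of the 5, the expected number of expanded clonotypes found was 9.54 of 11 in number 1, 14.1 of 16 in number 12, 9.18 of 10 in number 13, 8.17 of 14 in number 10 and 5 of 8 in number 3, or 46.0 in all. The lower proportions of numbers 3 and 10 were also seen with counts thinned to an equal total, with no test made. Thinning does not make equal the cells or molecules behind the counts, which are not known.

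The summed share in the brain of the same number was 22.8% in number 12 (interval 22.0% to 23.5%, 2801 of 12311 counts), 7.25% in number 13 (5.91% to 8.78%), 5.87% in number 1 (5.20% to 6.59%), 4.37% in number 10 (3.15% to 5.88%) and 3.05% in number 3 (1.85% to 4.73%). By part these shares were 25.6% and 19.9% in number 12, 6.68% and 7.87% in number 13, 9.61% and 4.26% in number 1, 1.88% and 5.36% in number 10, and 2.32% and 3.75% in number 3. Both parts of number 12 lay above both parts of the other 4 numbers. The ranges of number 1 and number 13 overlapped, as did those of numbers 1 and 10 and of numbers 3 and 10, while both parts of number 13 lay above those of numbers 3 and 10. No test across treatments was made of these shares. The brains of numbers 3 and 10 rested on few counts: parts 1 and 2 gave 7 and 12 for number 3 but 5 and 36 for number 10.

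Relative to the ovary, the summed share in the brain was 0.549-fold in number 12, 0.358-fold in number 13, 0.303-fold in number 1, 0.180-fold in number 3 and 0.166-fold in number 10. The clonotypes were chosen for high ovary shares, which favours a lower share elsewhere. With clonotypes chosen in 1 ovary part and the ovary value taken from the other part, a comparison added after seeing the data, the brain share was lower in each of the 5 numbers and in both directions. Both parts are of the same ovary, so this choice still favours a higher share in the ovary than in the brain. For those chosen in part 1, the other ovary part and the brain held 34.7% and 20.7% in number 12, 20.4% and 7.25% in number 13, 11.4% and 4.73% in number 1, 13.5% and 2.73% in number 3, and 24.3% and 4.37% in number 10. No p-value is given, since the clonotypes of each sum were chosen with results of these data known. The clonotypes of 0.5% to 1% in the ovary had brain-to-ovary ratios of 0.983, 0.309, 0.546, 0.727 and 0.0189 in the same order of numbers. Of the 59 expanded clonotypes, 55 had a lower share in the brain than in the ovary and 4 a higher one.

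**Figure D2:**
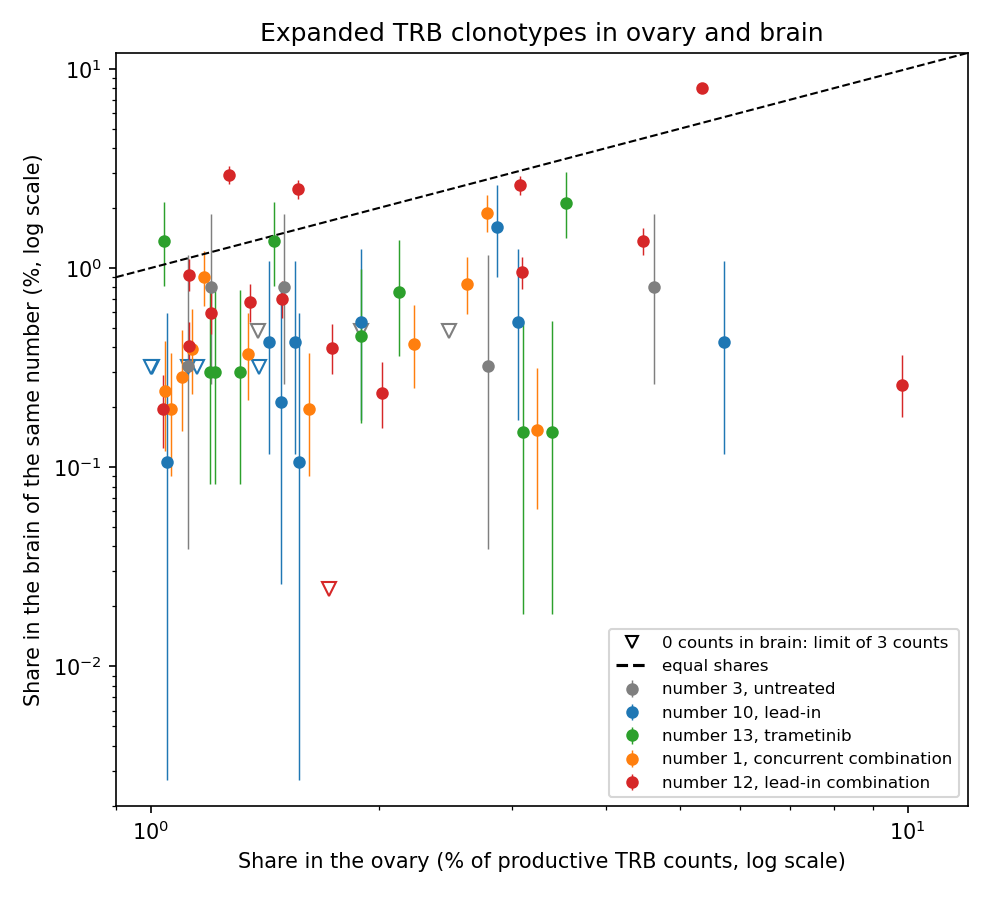
Share of each expanded clonotype in its ovary (horizontal axis) and in the brain of the same number (vertical axis), both in % of productive TRB counts on log scales, with exact 95% counting intervals. Open triangles mark 9 clonotypes with 0 counts in the brain, drawn at the limit of 3 counts, and 4 points lie above the dashed line of equal shares.

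In the lead-in combination the order of the clonotypes differed between organs. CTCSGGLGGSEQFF, first in the ovary at 9.83%, held 0.132% and 0.385% of the brain parts and ranked 44 there, 37.8-fold below its ovary share. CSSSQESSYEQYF, second in the ovary at 5.34%, was first in the brain at 8.83% and 7.23%. A TRBV5/TRBJ1-4 clonotype of 15 residues held 1.27% of the ovary and 3.67% and 2.23% of the brain parts (2.94% in all, 2.32-fold its ovary share). A TRBV14/TRBJ2-3 clonotype of 18 residues held 1.56% of the ovary and 3.05% and 1.94% of the brain (2.49% in all, 1.59-fold). In both brain parts these 3 clonotypes lay above their summed ovary share.

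The fourth clonotype with a higher share in the brain was in number 13 and is given with that number. In number 12, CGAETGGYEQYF (TRBV20/TRBJ2-7) held 3.07% of the ovary and 2.61% of the brain, and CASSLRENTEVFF with TRBV3 4.47% and 1.36%. The TRBV17/TRBJ2-7 clonotype of 18 residues held 3.10% of the ovary and 1.30% and 0.609% of the brain parts. The remaining 8 with brain counts held 0.195% to 0.926% of the brain. Among them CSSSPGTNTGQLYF (TRBV23/TRBJ2-2) had 0.926%, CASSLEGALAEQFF (TRBV3/TRBJ2-1) 0.674%, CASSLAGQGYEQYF (TRBV3/TRBJ2-7) 0.593%, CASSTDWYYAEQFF (TRBV12-1/TRBJ2-1) 0.398% and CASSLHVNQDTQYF (TRBV12-2/TRBJ2-5) 0.195%. All 15 had counts in both brain parts, and the largest, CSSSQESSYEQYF, made up 8.02 of the 22.8 percentage points. As a description over clonotypes that share their libraries, the ovary and brain shares of these 16 had a Pearson's r of 0.242 and a Spearman's rho of 0.233. In the other numbers r and rho were 0.468 and 0.828 (number 10, 14 clonotypes), 0.389 and 0.232 (number 1, 11), 0.214 and 0 (number 3, 8) and 0.129 and -0.0617 (number 13, 10). The values of number 10 rested on 41 brain counts, with 9 of its 14 clonotypes found, and those of number 3 on 19 counts. The choice at 1% also cut the range of the ovary shares.

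The leader of the ovary was not the leader of the brain in the concurrent combination either. There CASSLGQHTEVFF held 2.78% of the ovary and was first in the brain at 1.88%, although 72 of its 86 brain counts came from part 1 (5.24% of that part against 0.438% of part 2). The TRBV3/TRBJ2-1 clonotype of 15 residues that led this ovary at 3.24% held 0.153% of the brain, 21.2-fold less. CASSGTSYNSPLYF (TRBV13-1/TRBJ1-6) had nearly equal brain parts, 0.801% and 0.939%, beside 1.17% of the ovary. The TRBV13-2/TRBJ2-2 clonotype of 16 residues, found mostly in part 2 of the ovary, held 1.31% and 0.626% of the brain parts. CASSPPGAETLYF (TRBV5/TRBJ2-3) had 0.416% and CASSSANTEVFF (TRBV3/TRBJ1-1) 0.394%, and 3 longer clonotypes with 10 or more counts had 0.241% to 0.372%.

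In the trametinib number the TRBV5/TRBJ1-4 clonotype of 15 residues was first in both organs, with 3.54% of the ovary and 2.11% of the brain. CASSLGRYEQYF (TRBV3/TRBJ2-7) was at 1.45% and 1.36%, and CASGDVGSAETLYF (TRBV13-2/TRBJ2-3) at 2.13% and 0.755%, the latter from 10 counts in part 2 and 0 in part 1. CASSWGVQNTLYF (TRBV14/TRBJ2-4), the smallest of this ovary at 1.04%, held 1.36% of the brain (0.808% to 2.14%), with all 18 counts in part 2. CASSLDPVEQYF and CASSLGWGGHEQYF, at 3.39% and 3.10% of the ovary, had 2 brain counts each (0.151%, interval 0.0183% to 0.545%).

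In the lead-in number the TRBV5/TRBJ2-4 clonotype of 16 residues was the only one with counts in both brain parts, 5 and 10, and it was first in that brain at 1.60% (0.898% to 2.62%). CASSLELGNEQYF, 5.71% of the ovary, had 4 counts in the brain (0.426%, 0.116% to 1.09%). In the untreated number no expanded clonotype was seen in both brain parts, and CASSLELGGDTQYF had 5 counts, all in part 2 (0.804%, 0.262% to 1.87%). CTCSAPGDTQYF (TRBV1/TRBJ2-5), 1.90% of the untreated ovary, had 0 counts among 622. By the limit of 3 counts, which reflects counting alone, its share in that brain was at least 3.93-fold lower.

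Seen from the brain, 7 clonotypes of number 12 held 1% or more there, and all 7 occurred in its ovary, 5 of them as expanded clonotypes. The same counts were 6, 6 and 3 in number 13, 5, 5 and 1 in number 1, 3, 2 and 1 in number 10 and 9, 7 and 0 in number 3.

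Brains of other numbers held few of the expanded clonotypes, but a higher share of them than of all ovary clonotypes, which was not tested. Of the 59, 48 were found in no other number in either organ. A brain of another number held 10 of the 59 (16.9%), against 3.18% of all clonotypes of the 5 ovaries, and an ovary of another number held 8 (13.6%), against 4.53%. None was expanded in 2 ovaries, and none held 1% or more of another number's brain, where the highest share was 0.910%. None of the 16 clonotypes of number 12 was found in the 9 other brains or the 4 other ovaries, although they summed to 22.8% of their own brain.

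**Figure D3:**
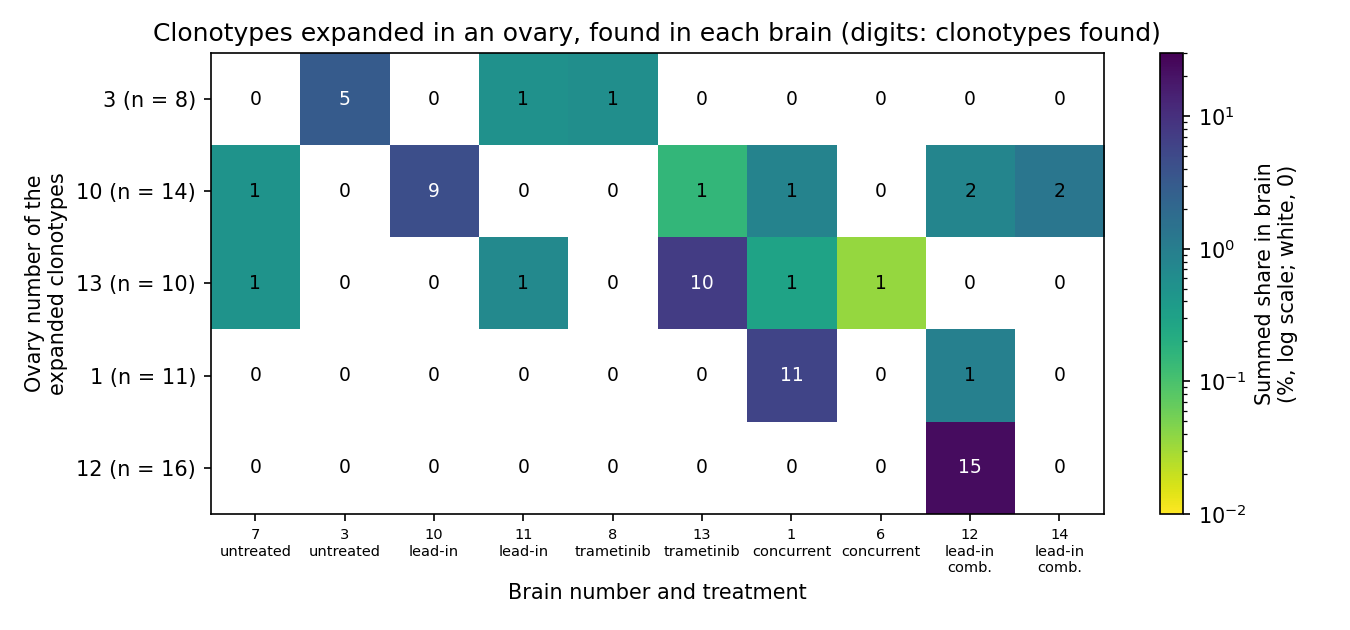
Summed share, in % on a log colour scale, of the clonotypes expanded in each ovary (rows) in each brain (columns, number and treatment), with the number of clonotypes found written in each cell. The brain of the same number holds 5, 9, 10, 11 and 15 of them, and no other brain holds more than 2.

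The 11 clonotypes found elsewhere carried TRBV1, TRBV2, TRBV3, TRBV5, TRBV12-1, TRBV13-1 or TRBV16. The widest was a TRBV1/TRBJ1-2 clonotype of 15 residues. It held 1.00% of the lead-in ovary, 0.901% of the trametinib ovary (321 counts), 0.563% of the concurrent and 0.407% of the lead-in combination ovary. In brain it was found in numbers 1 (0.832%), 12 (0.171%) and 13 (0.151%), and it had 0 counts in the brain of number 10, where the limit was 0.320%. It was thus seen in the brains of the 3 other numbers whose ovaries held it, but not in that of the ovary where it passed 1%.

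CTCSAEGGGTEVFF (TRBV1/TRBJ1-1), 1.55% of the lead-in ovary and 0.426% of the brain of that number (0.116% to 1.09%), held 0.617% and 0.838% of the brains of numbers 12 and 14, both of the lead-in combination, and 0.168% of the ovary of number 12. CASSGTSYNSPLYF, expanded in the concurrent combination, held 0.445% of the ovary and 0.910% of the brain of number 12. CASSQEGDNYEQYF (TRBV2/TRBJ2-7), expanded in the trametinib ovary at 1.20%, held 0.199% and 0.285% of the ovary and brain of number 1. The TRBV5/TRBJ1-4 clonotype of the trametinib ovary held 0.683% of the brain of number 11, which had the lead-in and for which no ovary was analysed here, and a TRBV2/TRBJ1-1 clonotype of the untreated ovary held 0.516% of that same brain.

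Several expanded clonotypes resembled each other across ovaries. All 4 TRBV16 clonotypes of numbers 3 and 10 began with CASSLELG, 2 in each ovary.
TRBV16/TRBJ2-5, number 3: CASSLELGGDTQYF
TRBV16/TRBJ2-7, number 3: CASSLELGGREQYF
TRBV16/TRBJ2-7, number 10: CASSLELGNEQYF
TRBV16/TRBJ2-7, number 10: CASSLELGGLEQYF
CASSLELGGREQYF and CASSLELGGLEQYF differ at 1 residue and came from different ovaries. In the whole series 52 clonotypes, 2.13% of those with TRBV16, had this start. They summed to 8.38% of the untreated ovary and 7.20% of the lead-in ovary (23 clonotypes each), 0.121% of the trametinib ovary, 0.00722% of the lead-in combination and 0 counts in the concurrent combination. The untreated and lead-in ovaries are the 2 of day 0, and with 1 number each, day, treatment and number cannot be told apart. In brain the highest shares were 1.13% in number 3, 0.681% in number 8 and 0.496% in number 7, and 7 counts or fewer lay behind each.

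A second group joined 3 ovaries. The TRBV5/TRBJ1-4 clonotypes of 15 residues in the untreated, lead-in combination and trametinib ovaries all began with CASSQGQG and ended with ERLFF, so that only 2 residues between could differ. They differed at 1 residue between numbers 3 and 12 and at 2 residues between number 13 and each of the others. Their shares were 1.12%, 1.27% and 3.54% of the ovaries. The pattern had 11 clonotypes in the series (0.923% of those with TRBV5 and any J), and 0 counts in the ovaries of numbers 1 and 10. TRBJ1-4 was itself carried by 6.69% of all ovary clonotypes, and the share among clonotypes with both segments was not counted. The clonotype expanded in the untreated ovary was also found in the trametinib ovary at 0.342% (122 counts). In brain the pattern held 2.94% in number 12, 2.19% in number 13, 0.683% in number 11 and 0.322% in number 3. The shared starts were picked after the sequences had been seen, so these counts describe them and test nothing.

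In the lead-in combination the sequence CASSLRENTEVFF was expanded under 2 V names. With TRBV3 it had 1337 and 520 counts in the ovary parts and with TRBV12-1 281 and 339, both joined to TRBJ1-1. In the brain parts the counts were 76 and 92 with TRBV3 and 53 and 33 with TRBV12-1. The ratio of the names thus differed between parts and organs, the TRBV3 form being higher in each of the 4 samples. Merging the names leaves 58 expanded sequences. No other expanded clonotype had its CDR3 and J under another V name at more than 0.989% of its own count.

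The V segments of the expanded clonotypes were spread over 17 names, none of them a joined name. TRBV5 was used by 8 of 59 (13.6%), in all 5 ovaries, and by 4.31% of all ovary clonotypes. TRBV3 was used by 7 (11.9% against 8.92%), and TRBV1, TRBV13-2 and TRBV16 by 5 each (8.47%, against 8.50%, 12.6% and 8.82%). TRBV12-1, TRBV15 and TRBV2 had 4 each, TRBV23 had 2, both in number 12, against 0.683% of all ovary clonotypes, and TRBV30 had 1 against 0.468%. TRBV29 had none, although 9.03% of all ovary clonotypes carried it, and nor did TRBV13-3 (4.05%), TRBV4 (2.10%) or TRBV31 (2.01%). These are descriptions of 59 chosen clonotypes, in which 1 clonotype is 1.69%.

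CDR3 lengths were close to those of all ovary clonotypes, while among the J segments the widest difference was at TRBJ2-7. TRBJ2-7 was used by 17 of 59 (28.8% against 20.6%), TRBJ2-1 by 9 (15.3% against 13.3%) and TRBJ1-1 by 7 (11.9% against 9.90%). All 12 J segments occurred, and the TRBJ2 cluster held 43 clonotypes (72.9% against 67.3%). CDR3 length was 14.1 ± 1.37 residues (mean and SD over 59 clonotypes) against 14.1 ± 1.52 over 20945 occurrences of a clonotype in an ovary, with a median of 14 in both. Lengths ran from 12 to 18, with 57 of the 59 between 12 and 16 (96.6% against 91.5%). The exceptions were the TRBV17/TRBJ2-7 and TRBV14/TRBJ2-3 clonotypes of number 12, both of 18 residues, which held 3.10% and 1.56% of that ovary. The short extreme was shared by 8 clonotypes of 12 residues, among them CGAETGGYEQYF, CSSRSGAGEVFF and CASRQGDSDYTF (TRBV15/TRBJ1-2, number 1).

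**Figure D4:**
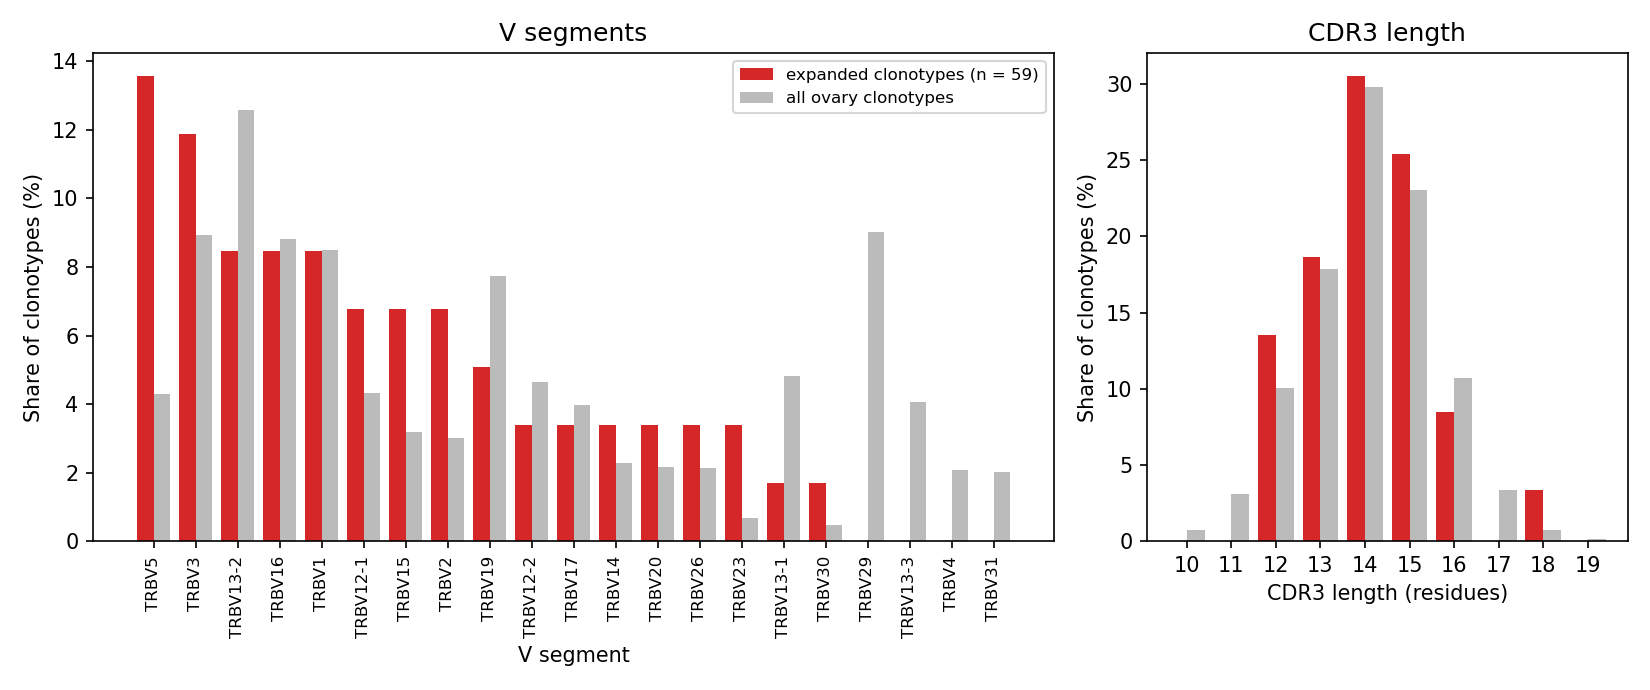
Share of clonotypes (vertical axes, %) by V segment (left) and by CDR3 length in residues (right), for the 59 expanded clonotypes (red) and for all clonotypes of the 5 ovaries (grey). TRBV5 stands at 13.6% against 4.31%, TRBV29 has no expanded clonotype against 9.03%, and the length profiles overlap.

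Each expanded clonotype stood among many rare sequences that differed from it by 1 residue. With the same V, J and length, 625 such clonotypes were counted in the ovary of the expanded one, 3 to 32 for each of the 59. The same sequences' neighbourhoods in the 4 other ovaries held 14.8 in all on average, and each of the 59 had more in its own ovary than the mean of the others. These 625 were 2.98% of all ovary clonotypes. A single count lay behind 390 of them (62.4%, against 31.3% of all ovary clonotypes), 609 had under 10 counts, and 15 were found in the brain of the same number. Both parts held 95 of them (15.2%, against 10.8% of all ovary clonotypes). Their sum was a median of 1.86% of the count of the expanded clonotype. The highest values were 17.6% for a TRBV26/TRBJ1-5 clonotype of 15 residues in number 3, with 1 neighbour at 73 counts, and 11.6% for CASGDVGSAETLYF in number 13. Whether they are receptors of their own or copies read with an error was not tested.

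**Figure D5:**
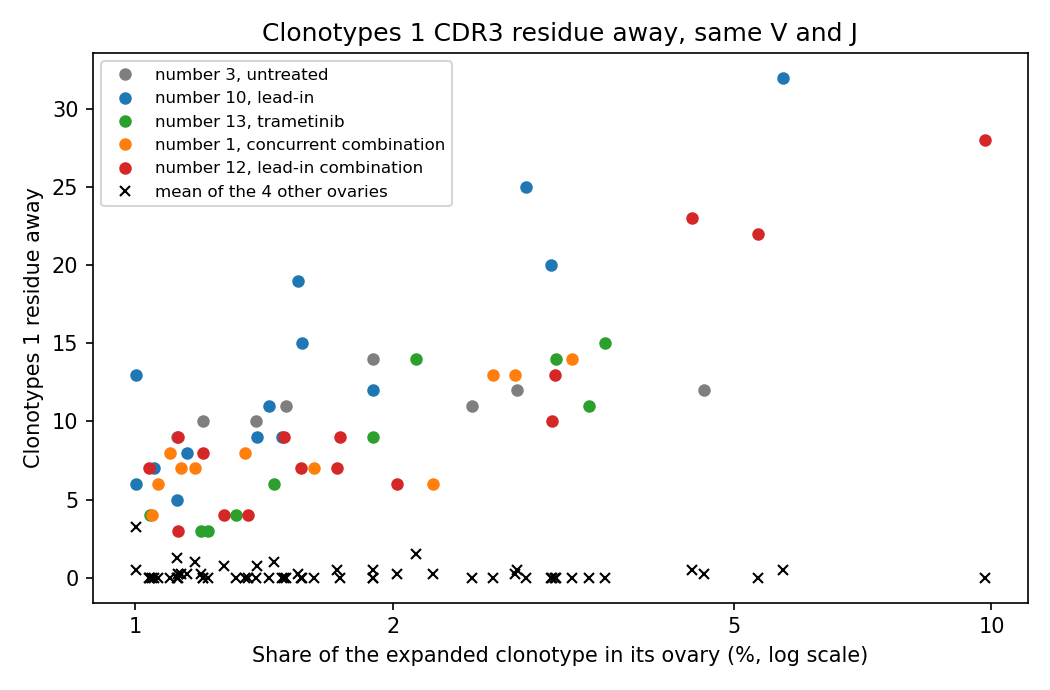
Number of clonotypes 1 CDR3 residue away with the same V, J and length (vertical axis) against the share of the expanded clonotype in its ovary (horizontal axis, %, log scale). Coloured circles count them in the clonotype's own ovary, 3 to 32 each, and black crosses give the mean over the 4 other ovaries.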

How the data were processed

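The authors deposited 1 table of whole-number counts, in which a row is a receptor chain with its V name, J name and CDR3 residues and a column is 1 of the 29 samples. Per the labels' protocols, libraries were made from RNA with the QIAseq Immune Repertoire RNA kit. The submitters' processing notes name the human build GRCh38 for these mouse samples, so no coordinates are given. Not given in the sources used here are the aligner, the clonotype caller, its filters and what a count stands for, reads or molecules. All 29 V and J names of the expanded clonotypes matched RefSeq symbols of GRCm38.p6.

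Rows with the TRB chain and a fully resolved CDR3 were called productive, which left out 133 of 27517 rows (0.0608% of TRB counts). Shares are percentages of productive TRB counts. Groups came from the sample titles. No 2 columns were identical. Fisher's exact test between parts, tested on simulated data, was two-sided and used clonotypes with at least 10 counts, since with 1 library a part no model of spread could be fitted. The simulated counts were drawn as independent, so they do not show how the test behaves where counts are not. Clonotypes named are the 3 largest per ovary, those with 10 or more counts in the brain of the same number, those near the threshold, and others chosen after their values were seen, such as shared starts and clonotypes found in other numbers. The clonotypes and rules were chosen with earlier results of these data known. Alternatives were other thresholds, other definitions of a clonotype, samples left out and thinning. Python 3.11.15, numpy 2.4.6, pandas 2.3.3, scipy 1.17.1 and matplotlib 3.10.9 were used.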

Additional observations from a re-analysis of the deposited data

Results flagged for a closer look

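Rows with an unresolved CDR3 residue were in no comparison. For 2 expanded clonotypes of the lead-in combination ovary, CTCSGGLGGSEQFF and the TRBV17/TRBJ2-7 clonotype of 18 residues, such rows matched at every resolved position and held 4 counts each in that ovary, above the 3 that a count of 0 allows, and 0 counts in other numbers. These were 0.0979% and 0.311% of the clonotypes' own counts. In all, 19 expanded clonotypes had a matching row, with 34 counts in their own ovaries of the 147 unresolved TRB counts in ovary samples.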

How the results depend on the processing

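The number of expanded clonotypes was 134 at a threshold of 0.5%, 20 at 2% and 36 where 1% had to be reached in each part. It ran from 55 to 60 with any 1 ovary sample left out, and was 58 to 60 under the other definitions tried, including 60 with clonotypes 1 residue away merged and 60 with only CDR3 from C to F, both chosen after seeing the data. Those found in the brain of the same number were 100 at 0.5% and 19 at 2%, and 42 to 50 under the settings that kept the threshold, the lowest without part 2 of brain number 10, without which 1 of its 14 was found. The summed share in that brain, averaged over the 5 numbers, was 8.66%, with values of single numbers from 3.05% to 22.8%. Between the 2 brain parts of a number the SD was 2.77 (root mean square over the 5 numbers), which is not the spread between numbers. The averaged share was 13.6% at 0.5% and 4.72% at 2%, and 5.14% without number 12, a setting chosen after seeing the data. The clonotypes called between parts were 51, and 35 where a difference of 1.5-fold or more was also needed. A minimum of 50 counts gave 51 again, but every expanded clonotype had more counts than that, so it could leave none out. Ovary and brain are matched in 5 numbers, and their shares were compared within each number. No paired test was made, because the ovary shares chose the clonotypes, so that difference is given as values. Each ovary treatment has 1 number, so no test across treatments was made. Low brain depth limits what a count of 0 shows, most of all in numbers 3 and 10.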
